A study of Mus musculus with 6 samples.

Results

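Methyl groups on histone lysines are written by methyltransferases and erased by demethylases, and 47 genes that encode such enzymes or their partner proteins are described here in mouse granulosa cells. The genes were taken from a list of symbols, matched to the gene identifiers of the count files through the GENCODE annotation. All 47 were found among the 49315 genes of the files, and all 47 passed the filter on low counts that left 18250 genes to test. They comprise 20 demethylase genes and 27 genes of methyltransferases and of Polycomb repressive complex 2 (PRC2).

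RNA came from freshly isolated ovarian granulosa cells, the somatic cells that surround the oocyte, and was sequenced in 3 libraries labelled wild type (WT) and 3 labelled Jmjd3 knockout (KO). All mice were female, labelled as strain C57BL/6J and aged 8 to 9 weeks, and the knockout was described as specific to granulosa cells. The sources used here do not give the driver of the deletion, the exons removed, any hormone treatment or the number of animals behind a library. Since replicates are not stated to be separate animals, the spread behind each p-value is that of these libraries and may be technical.

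JMJD3, encoded by Kdm6b, removes methyl groups from lysine 27 of histone H3 (H3K27), and KDM6A (UTX) is its X-linked relative with the same activity. The opposing mark is written by PRC2, in which EZH1 or EZH2 is the catalytic subunit and EED and SUZ12 are required for activity. Other demethylases of the JmjC and LSD1 families and other SET domain methyltransferases act on H3K4, H3K9 and H3K36, while DOT1L, which has no SET domain, acts on H3K79. In granulosa cells this machinery acts on chromatin that changes as the follicle matures. The question for the comparison of KO with WT was whether RNA of any other writer or eraser stood at a different level where JMJD3 is labelled as deleted, that is, whether there was compensation at the RNA level.

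Gene counts summed to between 42379018 and 49901493 per library. Levels are read counts scaled to library size (CPM), given for each library or as mean ± SD with n = 3 per group, and comparisons between genes use CPM per kilobase of exon (RPKM). A difference is the log2 fold change of KO over WT, with its standard error (SE), from edgeR's quasi-likelihood test, and p-values were adjusted by Benjamini-Hochberg over all 18250 genes. All 14 granulosa cell markers were detected and none of the 14 was at 0, with summed levels of 18000 to 21100 CPM in WT and 20800 to 28100 CPM in KO. Among them only the hormone receptor gene Amhr2 passed the test, and it was lower in KO (adjusted p = 0.00212, edgeR). KO replicate 3 stood apart: 9 ovulatory response genes summed to 1060 CPM there and to 143 to 339 CPM in the other libraries, and 12 immediate early genes to 3160 CPM against 753 to 1510 CPM. Red blood cell markers summed to 383 to 798 CPM in WT and to 830 to 2260 CPM in KO, highest in KO replicate 1. Of these markers the low-level Slc4a1 passed the test, higher in KO (adjusted p = 0.0406, edgeR). KO replicate 1 also had the highest sum of endothelial markers (272 CPM against 128 to 189 CPM). Oocyte markers summed to 701 to 907 CPM in WT and to 591 to 647 CPM in KO. Luteal markers summed to 2610 to 3390 CPM in WT and to 3610 to 7320 CPM in KO. Theca markers summed to 287 to 370 CPM in WT and to 400 to 575 CPM in KO. Most of that gap lay in 1 gene, Cyp17a1 (82.0, 135 and 69.6 CPM in WT, against 316, 174 and 203 CPM in KO). Of the 5 theca markers, 3 had positive and 2 negative fold changes, and none passed the test. Sums of immune, surface epithelial and stromal fibroblast markers overlapped between the groups. The part of these other cells and responses in the values below was not tested, and in bulk RNA fewer cells of a type and less RNA per cell cannot be told apart.

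No writer or eraser gene passed the test between the groups. Of the 47 genes, 0 passed at an adjusted p under 0.05 in edgeR, against 0.219% of all genes tested, and 0 passed in DESeq2 (1.21% of all genes) or limma-voom (0.142%). At an unadjusted p under 0.05 there were 2 in edgeR (Kdm5b and Rbbp7), a share of 4.26% against 9.16% of all genes tested, with 3 in DESeq2 (8.56% of all genes) and 2 in limma-voom (8.88%). The log2 fold changes ran from -0.17 to 0.33 with a median of 0.03, against a median of 0.0039 over all genes tested. Of the 47, 28 had a positive fold change, or 59.6% against 50.9% of all genes tested. This lean depended on KO replicate 3: without it, more of the 47 had a negative fold change than a positive one.

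The intervals were narrow enough to bound most differences. For 43 of the 47 genes the 95% confidence interval of the fold change lay within 1.5-fold in either direction, as it did for 61.7% of all genes tested. The exceptions were Kdm6b, Kdm4d, Kmt2d and Dot1l, and for all 47 the interval lay within 2-fold. Without KO replicate 3 the number within 1.5-fold was 46, and 0 of the 47 passed the test, although 2.26% of all genes did. Replicates of the WT group were close, with a median coefficient of variation of 4.17% over these genes against 8.31% over all genes tested. In KO the median was 8.03%, against 10.6%. These comparisons with all genes were not matched for read count. The 47 genes had a higher median level per length (8.18 against 3.72 RPKM) and longer exon sequences (median 7440 against 3572 bases).

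**Figure D1:**
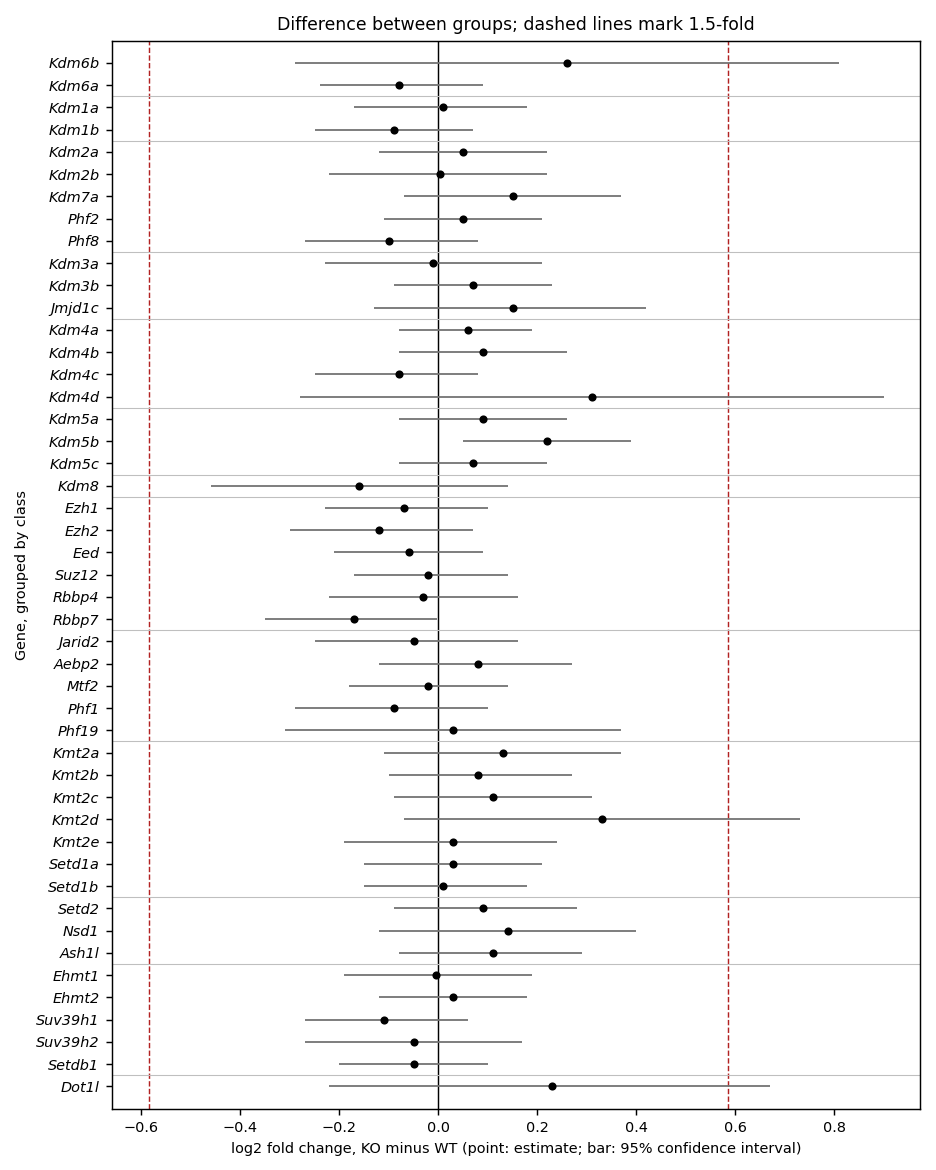
Log2 fold change of each of the 47 genes (KO minus WT, points) with its 95% confidence interval from edgeR (bars). Grey lines separate the classes and dashed lines mark 1.5-fold, which 43 of the 47 intervals do not cross.

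Kdm6b itself (chromosome 11, 69398508 to 69413675, GRCm38, minus strand) was no lower where the label was KO. WT replicates 1 to 3 held 72.8, 66.3 and 66.2 CPM, and the KO replicates, in the same order, held 64.7, 68.6 and 112 CPM. Both KO replicates 1 and 2 lay near the WT range, and KO replicate 3 lay above every other library by 1.54-fold. The log2 fold change was 0.26 ± 0.22 (SE; 95% confidence interval -0.29 to 0.81, adjusted p = 0.755, edgeR), and without KO replicate 3 it was -0.04. The interval corresponds to 0.819-fold to 1.75-fold of the WT level.

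Counts over the whole gene include reads from any exons that a deletion leaves in place, so this level does not test the deletion, and the KO libraries are so called from their label. The antisense gene Kdm6bos overlaps 4.11% of the Kdm6b exon bases. Its own counts were 8 to 23 per library, and with no strand setting given, reads in the shared bases cannot be assigned to either gene.

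Kdm6a, the gene most directly placed to act on the same mark, was at much the same level in every library. It stood at 73.6, 63.7 and 71.5 CPM in WT, against 63.3, 67.9 and 67.0 CPM in KO (chromosome X, 18162575 to 18279936). The KO values lay within or just below the WT range. Its log2 fold change was -0.08 ± 0.07 (SE; adjusted p = 0.775, edgeR), and the interval of -0.24 to 0.09 has an upper end of 1.06-fold. Per length, Kdm6b exceeded Kdm6a by 1.09- to 1.22-fold in WT, by 1.2-fold and 1.19-fold in KO replicates 1 and 2, and by 1.97-fold in KO replicate 3. The Y-linked paralogue Uty had no count in any of the 6 libraries, and Kdm5d was not above 0.0235 CPM in any.

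**Figure D2:**
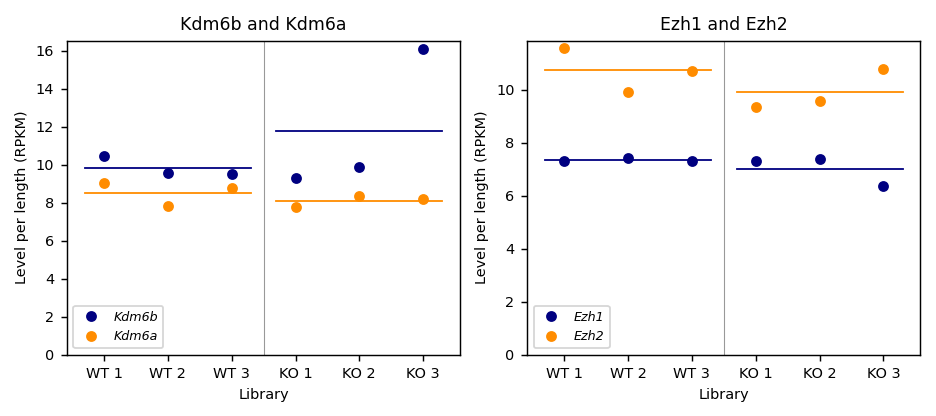
Level per length (RPKM) of the H3K27 demethylase genes Kdm6b and Kdm6a and of the alternative PRC2 catalytic subunit genes Ezh1 and Ezh2 in each library (points), with the mean of each group of 3 (lines). Kdm6b in KO replicate 3 is the only point far from its group, at 16.2 RPKM.

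The 2 flavin-dependent amine oxidase genes showed little difference. Kdm1a encodes LSD1, which demethylates H3K4 in corepressor complexes, and stood at 124, 120 and 114 CPM in WT, against 111, 118 and 130 CPM in KO. The KO libraries spanned the WT range, and the log2 fold change was 0.01 ± 0.08 (SE). Kdm1b, which is needed in mouse oocytes to establish maternal imprints, stood at 35.0, 33.6 and 37.3 CPM in WT, against 33.1, 32.4 and 33.8 CPM in KO. Its log2 fold change was -0.09 ± 0.07 (SE; adjusted p = 0.718, edgeR), in the direction of the lower sums of oocyte markers in KO, whose part in this value was not tested.

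The 5 genes of the KDM2 and KDM7 families encode products that act mainly on H3K36 and on H3K9 or H3K27. Of these genes, 4 had positive fold changes and none passed. The count of positive signs was 2 without KO replicate 3. It was 3 in limma-voom, with upper quartile scaling, either other filter or the replicate block, and without WT replicate 2 or KO replicate 2. Kdm7a, whose product removes H3K9 and H3K27 dimethyl marks, stood at 54.2, 55.7 and 54.1 CPM in WT, against 53.8, 58.0 and 70.6 CPM in KO. KO replicate 3 was the high library, and the log2 fold change of 0.15 ± 0.10 (SE; adjusted p = 0.664, edgeR) became 0.03 without it. The X-linked Phf8 stood at 46.4, 48.6 and 46.3 CPM in WT, against 40.8, 43.4 and 47.8 CPM in KO, a log2 fold change of -0.10 ± 0.08 (SE). The log2 fold changes of Kdm2a, Kdm2b and Phf2 were between 0.003 and 0.05. Kdm2b shares 615 aligned bases at 100% identity with the processed pseudogene Gm12397, so part of its count is uncertain.

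The KDM3 genes encode H3K9 demethylases. Jmjd1c, which has roles in germ cell maintenance in mice, stood at 87.6, 74.6 and 84.7 CPM in WT, against 78.0, 87.6 and 108 CPM in KO. Its log2 fold change was 0.15 ± 0.12 (SE; adjusted p = 0.735, edgeR) and was 0.01 without KO replicate 3, the only KO library clearly above WT. Kdm3b stood at 93.9, 86.4 and 87.3 CPM in WT, against 86.0, 97.3 and 97.2 CPM in KO, with overlapping groups and a log2 fold change of 0.07 ± 0.07 (SE). Kdm3a had one of -0.01.

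KDM4 proteins remove methyl groups from H3K9 and H3K36. Kdm4b stood at 60.3, 61.2 and 56.4 CPM in WT, against 57.8, 63.6 and 67.3 CPM in KO, with overlapping groups and a log2 fold change of 0.09 ± 0.08 (SE). Kdm4d was the gene at the lowest level of the 47, with 0.662, 0.609 and 0.635 CPM in WT and 0.746, 0.589 and 1.02 CPM in KO. It had as few as 25 counts in a library, and its log2 fold change of 0.31 ± 0.26 (SE; adjusted p = 0.742, edgeR) had an interval of -0.28 to 0.90. That value was 0.08 without KO replicate 3 and 0.47 without KO replicate 2. Kdm4a, whose name falls outside the rule for named genes, had KO values of 99.0 to 104 CPM just above the WT values of 96.7 to 98.9 CPM, a log2 fold change of 0.06 ± 0.06 (SE).

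Kdm5b had the smallest p of the 47 genes. It encodes a demethylase of trimethylated H3K4, as do Kdm5a and the X-linked Kdm5c, and stood at 95.5, 89.5 and 87.1 CPM in WT, against 96.5, 106 and 114 CPM in KO. All 3 KO libraries lay above all 3 WT libraries, by a small margin in KO replicate 1. The log2 fold change was 0.22 ± 0.08 (SE; 95% confidence interval 0.05 to 0.39), which did not pass over all genes (unadjusted p = 0.0186, adjusted p = 0.438, edgeR). Kdm5a stood at 103, 109 and 101 CPM in WT, against 102, 113 and 120 CPM in KO, and all 3 genes of the family had positive fold changes of 0.07 to 0.22. Of the whole set, 3 genes had groups that did not overlap (Kdm4a and Kdm5b higher and Rbbp7 lower in KO), a share of 6.38% against 15.6% of all genes tested.

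Kdm8, a JmjC gene whose product has been described as a protease and hydroxylase, was low. It stood at 4.88, 4.47 and 4.80 CPM in WT, against 4.50, 4.03 and 4.13 CPM in KO. The groups overlapped by 1 library, and the log2 fold change was -0.16 ± 0.13 (SE; adjusted p = 0.734, edgeR).

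The 6 genes of the PRC2 core all had fold changes slightly below 0, with a median of -0.06, and none passed. Without KO replicate 1, KO replicate 2 or WT replicate 1, 5 of the 6 were below 0. Ezh2, the more active catalytic subunit in proliferating cells, stood at 77.4, 66.3 and 71.4 CPM in WT, against 62.4, 64.0 and 71.9 CPM in KO (chromosome 6, 47530139 to 47595341). KO replicates 1 and 2 lay below the WT range and KO replicate 3 inside it. The log2 fold change was -0.12 ± 0.08 (SE; 95% confidence interval -0.30 to 0.07, adjusted p = 0.695, edgeR), and without KO replicate 3 it was -0.18 (adjusted p = 0.271). Ezh1 (chromosome 11, 101191115 to 101226463) stood at 54.4, 55.2 and 54.4 CPM in WT, against 54.3, 55.0 and 47.4 CPM in KO. Only KO replicate 3 departed from the other libraries, and the log2 fold change of -0.07 ± 0.07 (SE; adjusted p = 0.815, edgeR) was -0.00079 without it.

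The balance of the catalytic subunits leaned to Ezh2 in every library. Per length, Ezh1 was 0.632, 0.747 and 0.684 of Ezh2 in WT replicates 1 to 3 and 0.781, 0.771 and 0.592 of it in KO replicates 1 to 3. KO replicates 1 and 2 had the highest ratios and KO replicate 3 the lowest, so the groups overlapped. The partners needed for activity, Eed and Suz12, had log2 fold changes of -0.06 and -0.02.

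Rbbp7, a histone-binding subunit that PRC2 shares with histone deacetylase complexes, was the gene at the highest level per length of the 47 and the second with an unadjusted p under 0.05. It stood at 544, 567 and 547 CPM in WT, against 480, 482 and 507 CPM in KO, with no overlap. Its log2 fold change was -0.17 ± 0.08 (SE; 95% confidence interval -0.35 to -0.0024), which did not pass over all genes (adjusted p = 0.542, edgeR). Rbbp7 shares 942 aligned bases at 97.1% identity with the processed pseudogene Gm6382, so its value is uncertain. Its relative Rbbp4 had a log2 fold change of -0.03, with 18.0% of its exon bases under genes on the other strand.

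The 5 accessory genes, whose products direct PRC2 to chromatin or adjust its activity, were divided, with 2 positive and 3 negative fold changes. Phf1 stood at 37.4, 33.4 and 41.6 CPM in WT, against 34.3, 34.9 and 36.1 CPM in KO, inside the WT range, with a log2 fold change of -0.09 ± 0.09 (SE). Aebp2 stood at 83.2, 98.5 and 86.9 CPM in WT, against 86.6, 94.5 and 102 CPM in KO, with overlapping groups and one of 0.08 ± 0.09 (SE). Jarid2, a JmjC protein without demethylase activity that recruits PRC2, had one of -0.05, Mtf2 one of -0.02 and the low-level Phf19 one of 0.03.

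All 7 genes counted as H3K4 methyltransferases had positive fold changes, with a median of 0.08, and none passed. The count of positive signs was 5 without KO replicate 3 or WT replicate 2, and 6 without KO replicate 2, with no filter or with upper quartile scaling. Kmt2d, which encodes the enhancer methyltransferase MLL4 of the complex that also holds KDM6A, stood at 87.1, 91.4 and 90.1 CPM in WT, against 88.9, 104 and 145 CPM in KO. KO replicate 1 lay within the WT range and KO replicate 3 lay above the next library by 1.39-fold. The log2 fold change of 0.33 ± 0.17 was the largest of the 47 (SE; 95% confidence interval -0.07 to 0.73, adjusted p = 0.611, edgeR), and it was 0.11 without KO replicate 3. Kmt2d shares 455 aligned bases at 99.6% identity with the processed pseudogene Gm47184, so part of its count is uncertain. Its partner enzyme gene Kmt2c stood at 64.3, 65.5 and 71.5 CPM in WT, against 63.2, 75.6 and 78.5 CPM in KO, a log2 fold change of 0.11 ± 0.09 (SE). KO replicate 1 was the lowest of the 6 libraries in 5 of the 7 genes and KO replicate 3 the highest in 5. Kmt2e, whose SET domain has little or no known methyltransferase activity, had a log2 fold change of 0.03. The value of Setd1a (0.03) is uncertain, since Gm49388 covers 51.8% of its exon bases on the same strand.

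The 3 H3K36 methyltransferase genes had positive fold changes of 0.09 to 0.14. Nsd1, which writes dimethylated H3K36, stood at 141, 135 and 135 CPM in WT, against 126, 149 and 179 CPM in KO. KO replicate 1 was the lowest of the 6 libraries and KO replicate 3 the highest, and the log2 fold change was 0.14 ± 0.12 (SE; adjusted p = 0.734, edgeR). It was 0.003 without KO replicate 3 and 0.25 without KO replicate 1. Ash1l stood at 76.0, 75.3 and 74.2 CPM in WT, against 71.5, 83.3 and 87.8 CPM in KO, with the same order of KO libraries and a log2 fold change of 0.11 ± 0.08 (SE). Setd2, the enzyme of trimethylated H3K36 over transcribed genes, had one of 0.09.

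Genes of H3K9 methyltransferases, which act in heterochromatin and gene silencing, were near 0, with 4 of 5 fold changes negative and a median of -0.05. The count of negative signs was 2 without KO replicate 1 and 3 without WT replicate 1. The X-linked Suv39h1 stood at 44.7, 41.1 and 40.0 CPM in WT, against 36.9, 40.3 and 39.8 CPM in KO. KO values lay at or below the lower part of the WT range, with a log2 fold change of -0.11 ± 0.07 (SE; adjusted p = 0.697, edgeR). The antisense gene Gm14820 covers 14.6% of the Suv39h1 exon bases. Setdb1 stood at 78.1, 74.6 and 79.9 CPM in WT, against 70.4, 75.3 and 78.6 CPM in KO, a log2 fold change of -0.05 ± 0.07 (SE). Ehmt1, Ehmt2 and Suv39h2 had log2 fold changes between -0.05 and 0.03.

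Dot1l, the H3K79 methyltransferase gene, stood at 85.1, 82.3 and 82.1 CPM in WT, against 74.0, 91.8 and 126 CPM in KO. The KO libraries lay on both sides of the tight WT range. Its log2 fold change was 0.23 ± 0.18 (SE; 95% confidence interval -0.22 to 0.67, adjusted p = 0.738, edgeR), and without KO replicate 3 it was -0.0044.

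In absolute terms most of these genes were expressed at moderate levels. Per length, 36 of the 47 stood between 3 and 13 RPKM, with a median of 8.18 RPKM against 3.72 RPKM over all genes tested. After Rbbp7 (179 RPKM) came Ehmt2 (31.7 RPKM), Rbbp4 (27.5 RPKM), Kdm1a (23.1 RPKM), Kdm5c (22.6 RPKM) and Suz12 (20.8 RPKM). The lowest were Kdm4d (0.248 RPKM), Phf19 (0.822 RPKM) and Kdm8 (1.87 RPKM). Within the classes, Kdm4a (17.3 RPKM) led the KDM4 genes, Phf2 (12.7 RPKM) the KDM2 and KDM7 genes, Kdm3b (12.8 RPKM) the KDM3 genes, Phf1 (14.9 RPKM) the PRC2 accessory genes and Kmt2e (10.2 RPKM) the H3K4 group. Srpk2 covers 9.31% of the Kmt2e exon bases on the other strand, so its lead over Kmt2b (9.22 RPKM) in the H3K4 group is uncertain. Kmt2c was the lowest of that group (3.44 RPKM), as were Kdm2b (4.03 RPKM), Jmjd1c (6.02 RPKM), Kdm5b (5.92 RPKM), Ash1l (5.26 RPKM) and Suv39h2 (4.12 RPKM) of theirs. The gap between the top and the bottom of the set far exceeded any difference between libraries of a gene.

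**Figure D3:**
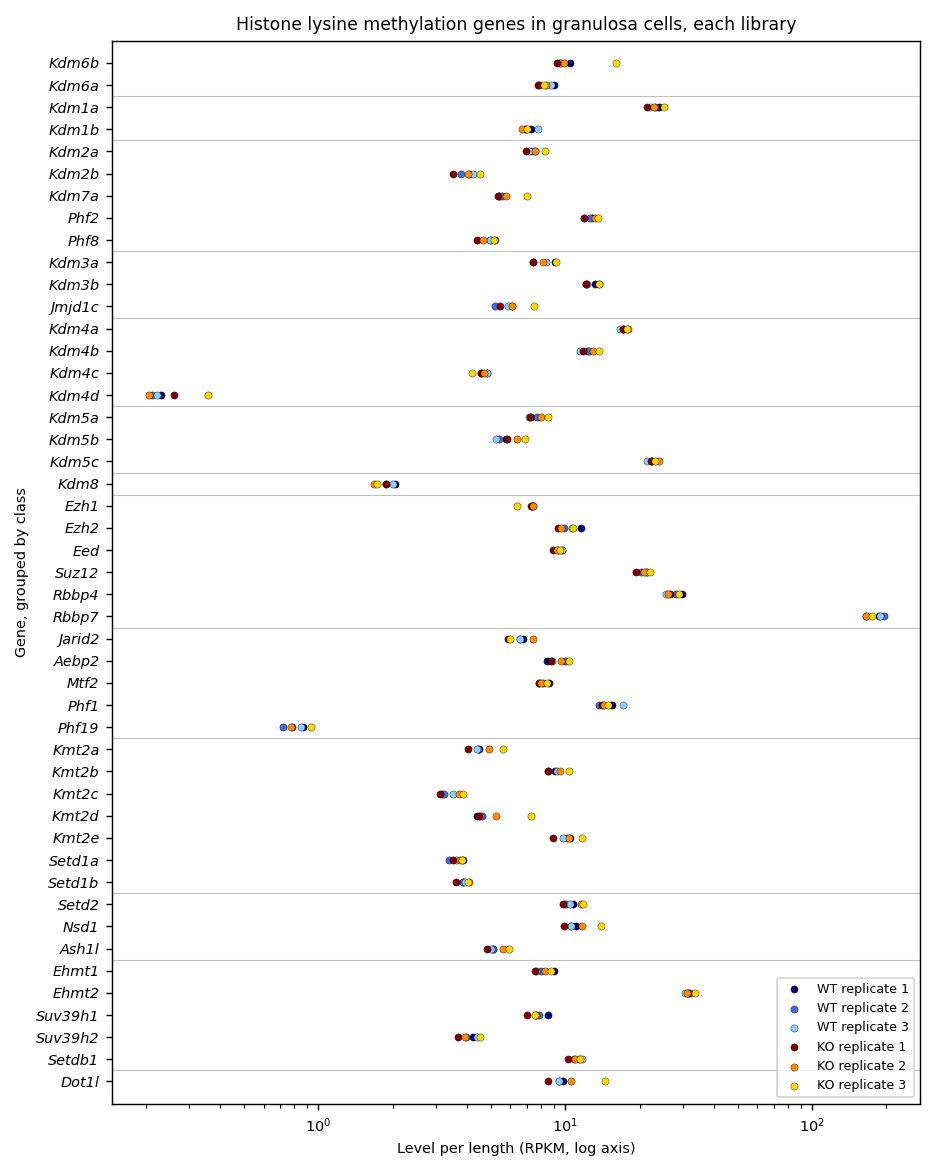
Level per length (RPKM, log axis) of the 47 genes in each of the 6 libraries, with grey lines between classes. Blue points are WT and red to yellow points are KO. Points of a gene lie close together, and Rbbp7 at 179 RPKM and Kdm4d at 0.248 RPKM mark the ends.

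For the set as a whole, the KO libraries differed more from each other than the groups did. KO replicate 3 was the highest of the 6 libraries in 26 of the 47 genes, or 55.3%, against 21.8% of all genes tested. KO replicate 1 was the lowest in 27, or 57.4%, against 19.8%. The median log2 difference from the WT mean was -0.08, 0.01 and 0.12 in KO replicates 1 to 3, while the WT replicates stood at 0.03, -0.02 and -0.01. In 7 genes, picked out after their values were seen, KO replicate 3 exceeded every other library by over 1.2-fold: Kdm6b, Kmt2d, Dot1l, Kdm4d, Jmjd1c, Kdm7a and Nsd1. They include all 4 genes with intervals beyond 1.5-fold. Without KO replicate 1, 10 of the 47 had an unadjusted p under 0.05, all with positive fold changes, against 8.14% of all genes tested, and 0 passed after adjustment. Of the 5 X-linked genes, 0 were highest in KO replicate 3, where their median was -0.05, and 4 were lowest in KO replicate 1, where it was -0.18.

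**Figure D4:**
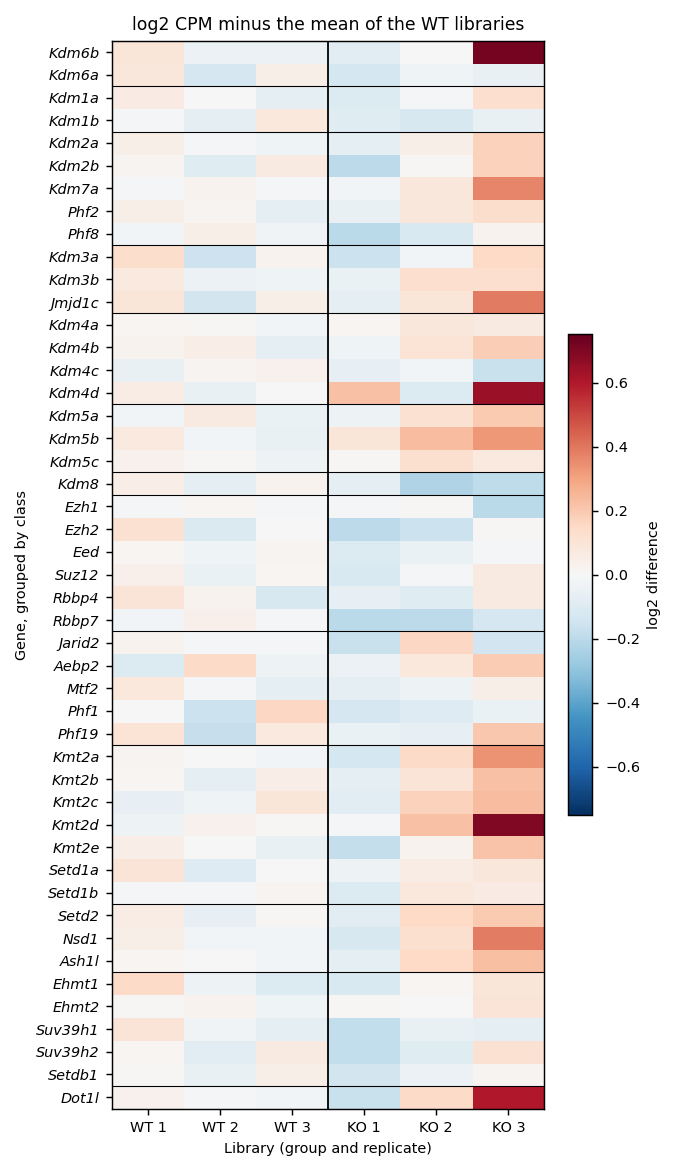
Log2 CPM of each of the 47 genes in each library minus the mean of the 3 WT libraries. The KO replicate 3 column is mostly red, strongest in Kdm6b (0.72), Kmt2d (0.69), Kdm4d (0.65) and Dot1l (0.60), and the KO replicate 1 column is mostly pale blue.

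Exon length was set beside this pattern. The 47 genes have long exon sequences, with a median of 7440 bases against 3572 bases over all genes tested, and 23 of them exceed 8000 bases. Over all tested genes above 8000 bases (2290 genes), the median log2 difference from the WT mean was -0.06, 0.04 and 0.07 in KO replicates 1 to 3. For genes of up to 2000 bases (4310 genes) it was 0.04, -0.03 and -0.04. Across the 47 genes, Spearman's rho between exon length and the difference was 0.02, 0.72 and 0.53 in the same order. Across all 18250 genes it was -0.09, 0.10 and 0.10. For WT replicates 1 to 3, each set against the other WT libraries, rho was -0.12, 0.20 and -0.08 across the 47 genes and 0.06, -0.07 and -0.01 across all genes. These correlations run across genes that share a library and are not independent, and the part of length in the differences was not tested. Of the 4 classes with all fold changes positive, the H3K4, H3K36 and KDM5 genes had median exon lengths of 12100, 12800 and 14200 bases, while Dot1l, alone in its class, had 8705 bases. The KDM2 and KDM7 genes had a median of 10100 bases with a negative member, and the PRC2 core had one of 5810 bases.

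**Figure D5:**
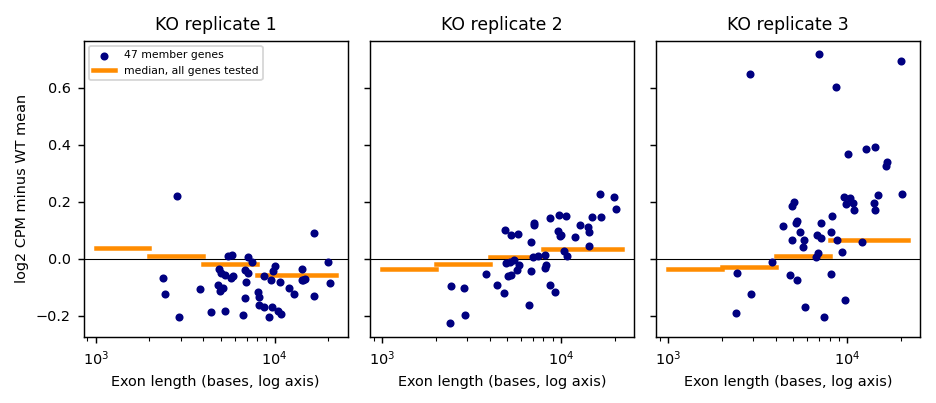
Log2 CPM minus the WT mean against exon length (log axis) for the 47 genes (points) in each KO library, with the median over all genes tested in 4 length ranges (orange lines). Longer genes lie higher in KO replicates 2 and 3 and not in KO replicate 1.

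Genes around this machinery gave the same count of calls. In the 5 lists, 0 of 11 COMPASS and MLL complex subunits, 0 of 21 other SET domain and lysine methyltransferase genes, 0 of 10 other JmjC genes, 0 of 21 genes of Polycomb repressive complex 1 and its deubiquitinase and 0 of 17 genes that supply 2-oxoglutarate or S-adenosylmethionine passed in either direction. Their median log2 fold changes were -0.05, 0.0015, 0.01, -0.02 and -0.01. Over all genes tested, 0.219% passed. Across these lists 4 of 80 genes had an unadjusted p under 0.05, or 5.0% against 9.16% of all genes tested.

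Men1, the scaffold of the KMT2A and KMT2B complexes, stood at 77.1, 74.1 and 72.0 CPM in WT, against 85.9, 81.5 and 80.4 CPM in KO, with a log2 fold change of 0.15 ± 0.06 (SE; adjusted p = 0.508, edgeR). Cxxc1, the CpG-binding subunit of the SETD1 complexes, had one of -0.11 ± 0.07 (SE). Jmjd8 stood at 68.2, 74.2 and 75.7 CPM in WT, against 89.3, 80.8 and 79.2 CPM in KO (0.19 ± 0.07 SE, adjusted p = 0.463, edgeR). Riox1, a JmjC oxygenase gene, had a log2 fold change of 0.11 ± 0.08 (SE). All KO libraries lay above all WT libraries in Men1, Jmjd8 and Riox1, and below them in Cxxc1. Genes without overlap, higher and lower in KO, numbered 1 and 1 in the COMPASS list and 0 and 2 among other methyltransferases. They numbered 2 and 1 among JmjC genes, 1 and 2 for Polycomb repressive complex 1 and 3 and 2 among supply genes. Of all genes tested, 15.6% had groups that did not overlap.

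In the list of Polycomb repressive complex 1, Pcgf6 had a log2 fold change of -0.16 ± 0.08 (SE). Of the other methyltransferase genes, Setd7 had one of -0.16 ± 0.07 (SE) and Prdm16 one of -0.26 ± 0.12 (SE). Mat2a, which makes S-adenosylmethionine, the methyl donor of the writers, stood at 139, 129 and 124 CPM in WT, against 132, 148 and 184 CPM in KO, with KO replicate 3 again the highest (0.25 ± 0.12 SE, adjusted p = 0.581, edgeR). Ahcy, which clears the by-product of methylation, stood at 149, 148 and 139 CPM in WT, against 124, 129 and 137 CPM in KO (-0.16 ± 0.07 SE, adjusted p = 0.544, edgeR). The groups did not overlap in Ahcy or in Setd7, both lower in KO.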

How the data were processed

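The authors deposited raw gene counts, 1 library per file. The submitters' processing notes name GRCm38, Trimmomatic 0.36, STAR 2.5.2b, Subread 1.5.2 and its featureCounts. The sources used here do not give the annotation release, strand setting or treatment of reads with several matches, so overlapping genes and copies are uncertain. Identifiers were matched to GENCODE M21 (48970 of 49315).

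edgeR 4.0.16 (R 4.3.3) was run on the counts with filterByExpr, TMM scaling and a robust quasi-likelihood fit of genotype alone over 18250 genes. The step was tested on simulated data. A prior count of 2 went into log2 CPM, and 42.5 to 51.4 counts make 1 CPM. Exon overlaps were read from the count files, and copies (300 bases or more at 95% identity) were found with BLAST 2.17.0. Alternatives were RLE and upper quartile scaling, DESeq2 1.42.0, limma-voom (limma 3.58.1), other filters, a replicate block and leaving out each library.

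The genes and lists were chosen with earlier results of these data known. Fold changes were named for Kdm6b, Kdm6a, Ezh1, Ezh2 and the 2 genes of each class or surrounding list with the smallest p. A gene that this rule names is not reported here. Lists of cell type markers were summed.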

Additional observations from a re-analysis of the deposited data

How the results depend on the processing

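The count of 0 called genes among the 47 was the same in all 13 alternatives, with the smallest adjusted p between 0.271 and 0.74. The filter at a mean of at least 1 CPM removed Kdm4d, which was therefore not tested there. The sources used here do not say whether replicate numbers pair the libraries. Correlations of deviations were -0.017, 0.074 and -0.033 for like numbers 1 to 3, and -0.067 to 0.059 for unlike numbers. They gave no sign of pairing, but with 3 libraries a group they cannot show that there was none. With the replicate block 0 of the 47 passed, the Kdm6b log2 fold change was 0.21 and 15 of all genes passed, against 40 without the block. Called genes over the whole table were 220 in DESeq2, 199 with no filter, 21 at a mean of at least 1 CPM, 26 in limma-voom and 8 to 421 when a library was left out, the highest without KO replicate 3. None of the 421 was among the 47. The median of the 47 ran from -0.01 to 0.06 when a library was left out, and genes with intervals within 1.5-fold numbered 43 to 46. Kdm6b ran from -0.04 (without KO replicate 3, the only change of sign) to 0.40. Kdm1a, near 0 throughout, was at -0.02 with upper quartile scaling, -0.01 with no filter and -0.0023 at a mean of at least 1 CPM. It ran from -0.06 to 0.05 when a library was left out. Dot1l ran from -0.0044 to 0.39. The cause of these changes of sign was not tested. The Ezh1 to Ezh2 ratio averaged 0.701 with either TMM or RLE, as scaling cancels within a library. Depth limits Kdm4d most. An interval clear of 0 was not enough to pass over all genes, as in Kdm5b (0.05 to 0.39) and Rbbp7 (-0.35 to -0.0024). In simulated counts with 3 libraries a group, 35.8% of 1.5-fold changes and 80.6% of 2-fold changes passed in the right direction. Of the simulated calls at an adjusted p under 0.05, 10.4% were false. The changed genes were drawn at random from all genes tested and were not matched to the 47 in level or spread. These shares therefore do not give the power for the 47. A count of 0 passing genes does not by itself bound the differences, for which the confidence intervals are given above.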
